A study of Mus musculus with 6 samples.

Results

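The opioid system of the dorsal root ganglion was read as 8 genes, 4 that encode receptors (Oprm1, Oprd1, Oprk1 and Oprl1) and 4 that encode peptide precursors (Penk, Pdyn, Pnoc and Pomc). They were taken by symbol from the 54532 gene rows of the table, and each matched 1 mouse Ensembl identifier. Bulk RNA-seq libraries were made from the dorsal root ganglion, where the cell bodies of sensory neurons sit outside the spinal cord, in C57BL/6 mice at 8 postnatal weeks. The 3 Hdac2 conditional knockout libraries (Hdac2 cKO, genotype Adv-Cre+/hdac2-flop++) carried floxed Hdac2 and Cre recombinase under control of Advillin, a gene expressed mainly by primary sensory neurons. The 3 control libraries (WT, genotype hdac2-flop++) came from littermates with floxed Hdac2 and no Cre, so both groups carried the floxed alleles and the groups also differed by Cre itself. By its title, the study is about HDAC2, a histone deacetylase, in primary sensory neurons as a restraint on chronic pain through repression of α2δ-1 expression.

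Opioid receptors are G protein-coupled receptors that act through inhibitory Gi/o proteins. In sensory neurons they lower cyclic AMP, close presynaptic calcium channels and open potassium channels, which reduces transmitter release from pain-sensing fibres. Their peptide ligands are cut by proteases from the larger precursors. The mu receptor (Oprm1) is the main target of morphine, the delta receptor (Oprd1) binds enkephalins, the kappa receptor (Oprk1) binds dynorphins, and the nociceptin receptor (Oprl1) binds nociceptin and is not activated by the classical opioid peptides.

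The 3 classical precursors share an opioid core, a tyrosine, 2 glycines and a phenylalanine followed by methionine or leucine, and the nociceptin precursor holds a related stretch that starts with phenylalanine and ends in threonine. The coding stretches below show where each precursor holds its core, since this is the product that the precursor levels reported further on stand for. They were read from GENCODE release M21 transcripts (GRCm38, the assembly of mm10). Capitals mark the 5 codons of the core, and lower case marks the 2 codons on each side.
Penk core 1, chr4:4134328-4134354, minus strand: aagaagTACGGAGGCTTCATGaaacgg
Penk core 2, chr4:4134307-4134333, minus strand: aaacggTACGGAGGCTTCATGaagaag
Penk core 3, chr4:4134220-4134246, minus strand: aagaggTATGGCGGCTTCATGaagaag
Penk core 4, chr4:4134067-4134093, minus strand: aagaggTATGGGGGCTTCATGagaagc
Penk core 5, chr4:4133995-4134021, minus strand: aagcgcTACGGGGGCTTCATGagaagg
Penk core 6, chr4:4133935-4133961, minus strand: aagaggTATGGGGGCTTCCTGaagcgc
Penk core 7, chr4:4133842-4133868, minus strand: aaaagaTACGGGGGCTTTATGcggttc
Pdyn core 1, chr2:129688232-129688258, minus strand: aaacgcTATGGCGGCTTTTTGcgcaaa
Pdyn core 2, chr2:129688124-129688150, minus strand: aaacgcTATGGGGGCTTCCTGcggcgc
Pdyn core 3, chr2:129688067-129688093, minus strand: aagcgcTATGGTGGTTTCCTGcggcgt
Pnoc core 1, chr14:65404872-65404898, minus strand: aaaaggTTTGGGGGCTTCACCggggcc
Pomc core 1, chr12:3960367-3960393, plus strand: aagcgtTACGGTGGCTTCATGacctcc

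Penk held 7 cores in a coding sequence of 268 codons, of which 6 ended in methionine and 1 in leucine. Pdyn held 3 in 248 codons, all ending in leucine. Pomc held 1 in 235 codons, the start of beta-endorphin, and Pnoc held 1 of the phenylalanine form in 212 codons. All 12 cores followed a pair of codons for the basic residues lysine or arginine, where prohormone convertases cut, and 8 were also followed by such a pair. Penk cores lay in exon 2 of 2, Pdyn cores in exon 4 of 4, the Pomc core in exon 3 of 3 and the Pnoc core in exon 3 of 4.

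The promoters of the 3 receptors that carry most receptor reads are shown because Oprl1 differed between the groups without overlap, while Oprm1 and Oprd1 varied together between libraries. They are RefSeq sequences (GRCm38.p6), each from 250 bases before to 50 bases after an annotated start. Capitals mark matches on either strand to the GC box GGGCGG, the TATA box TATAAA or the cyclic AMP response element TGACGTCA; none of these motifs holds another.
Oprl1 promoter, chr2:181714766-181715065, plus strand: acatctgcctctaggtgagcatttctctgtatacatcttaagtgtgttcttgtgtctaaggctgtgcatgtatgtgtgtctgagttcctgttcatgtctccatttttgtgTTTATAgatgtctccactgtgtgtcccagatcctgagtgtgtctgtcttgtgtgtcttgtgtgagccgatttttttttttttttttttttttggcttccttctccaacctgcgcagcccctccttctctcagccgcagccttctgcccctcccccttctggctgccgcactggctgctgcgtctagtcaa
Oprm1 promoter, chr10:6788320-6788619, plus strand: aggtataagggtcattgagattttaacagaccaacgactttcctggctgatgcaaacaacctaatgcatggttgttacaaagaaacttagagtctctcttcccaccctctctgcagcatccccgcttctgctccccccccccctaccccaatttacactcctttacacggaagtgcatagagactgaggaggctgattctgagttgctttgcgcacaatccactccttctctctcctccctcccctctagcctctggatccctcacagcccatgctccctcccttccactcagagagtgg
Oprd1 promoter, chr4:132144437-132144736, minus strand: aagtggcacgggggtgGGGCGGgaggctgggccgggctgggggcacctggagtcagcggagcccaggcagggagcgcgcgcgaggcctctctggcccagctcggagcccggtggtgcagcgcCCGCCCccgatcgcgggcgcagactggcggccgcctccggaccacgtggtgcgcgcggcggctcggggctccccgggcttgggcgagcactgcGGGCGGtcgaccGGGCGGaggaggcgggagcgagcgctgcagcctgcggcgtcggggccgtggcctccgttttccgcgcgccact

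Of the 8 genes, 5 had an entry in the promoter table. Oprk1, whose groups also did not overlap, had none, and neither did Penk or Pnoc. Oprl1 and Oprm1 had 3 starts each, of which 1 is shown. The Oprd1 promoter held 79.3% G and C, 43 CpG dinucleotides and 4 GC boxes, against medians of 52.7% and 7 over all 32851 promoters of this length. The Oprl1 promoter shown held 47.7% G and C, 5 CpG dinucleotides and 1 TATA box match, which reads in the minus direction. The other Oprl1 starts held 53.7% and 49.7% G and C and no TATA box match. The Oprm1 promoter held 52% G and C, 4 CpG dinucleotides and no match to any of the 3 motifs. A GC box stood in 35.7% of 32851 promoters, a TATA box in 13.6% and a cyclic AMP response element in 1.79%.

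Reads assigned to genes totalled 27787407 to 42070531 in Hdac2 cKO libraries and 18943595 to 31338593 in WT libraries. Hdac2 itself was at 499.1, 371.5 and 535.0 normalised read counts (reads divided by a size factor per library) in Hdac2 cKO 1, 2 and 3, against 2816, 1715 and 3498 in WT 1, 2 and 3, lower in every knockout library. Avil, the gene whose promoter drives Cre, was at 8201 to 10125 in Hdac2 cKO and 11996 to 17149 in WT. Pan-neuronal markers were abundant in every library, with sums of 218940 to 294800 in Hdac2 cKO and 210160 to 369320 in WT. Libraries differed in ways that the groups do not explain. Lymphocyte and granulocyte markers summed to 8834, 13836 and 258.8 in Hdac2 cKO 1, 2 and 3 and to 15215, 874.0 and 274.9 in WT 1, 2 and 3. Y-linked genes summed to 3993 in Hdac2 cKO 2, 3649 in WT 2 and 5698 in WT 3 and to at most 7.06 in the others. Summed skeletal muscle markers lay apart by group, at 77.6 to 926.8 in Hdac2 cKO and 1167 to 7595 in WT. The 4 receptors had 77 to 1359 reads in a library, Penk 140 to 484, Pomc 20 to 119, Pnoc 4 to 28 and Pdyn 0 to 28.

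None of the 8 genes passed the test over all genes, and neither did any other gene (0 of 18410 tested, 0%). The test was limma on log2 (value + 1) with Benjamini-Hochberg adjustment, and the adjusted p of the 8 genes lay between 0.927 and 0.951. Hdac2, the deleted gene, was not called either, at a fold change of 0.181 (limma unadjusted p = 7.62e-05, adjusted p = 0.927). The lack of a call therefore says little about smaller changes. Over all genes 341 had an unadjusted p under 0.05 (1.85%), and edgeR called 0 genes, DESeq2 25 (0.136%) and DESeq2 with the replicate number as a block 77 (0.418%). The edgeR and DESeq2 calls held none of the 8 genes, and Pdyn and Pnoc had no adjusted p in the blocked DESeq2 fit. Among the 8 genes 1 had an unadjusted p under 0.05, Oprl1, which was higher in Hdac2 cKO, as were 0.875% of all genes at that p. All 8 passed the filter of 10 or more in at least 3 libraries. In the libraries the groups did not overlap for 2 of the 8 genes, Oprk1 and Oprl1, both higher in Hdac2 cKO, against 4.63% of all tested genes that were higher without overlap, 3.91% that were lower and 8.54% in either direction. The log2 fold change, Hdac2 cKO minus WT, was above 0 for 6 of the 8 genes, with a median of 0.44. Over all genes tested it was above 0 for 10185 of 18410, with a median of 0.06. With 3 against 3 libraries the smallest p of an exact two-sided permutation test is 0.1.

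**Figure D1:**
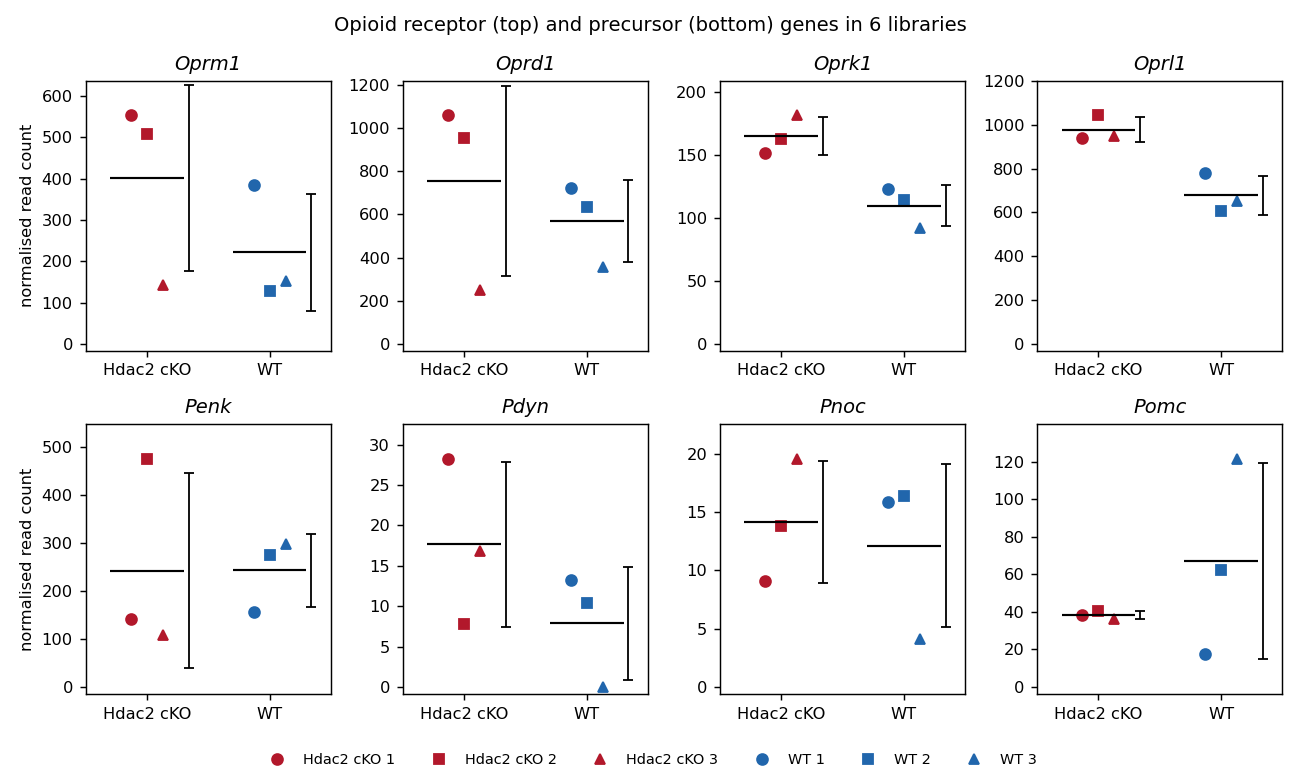
Normalised read counts (y axis, linear) of the 4 receptor genes (top) and 4 precursor genes (bottom) in the 3 Hdac2 cKO and 3 WT libraries, with symbols for the replicate number, a line at the group mean and a bar of 1 SD on each side. Oprk1 and Oprl1 are the genes in which every Hdac2 cKO library lies above every WT library.

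Oprl1 (ENSMUSG00000027584, mm10 chromosome 2, 181715016 to 181720985, plus strand), the nociceptin receptor gene, stood at 938.6, 1044 and 950.5 normalised read counts in Hdac2 cKO 1, 2 and 3, against 779.1, 607.5 and 651.1 in WT 1, 2 and 3. Every knockout library thus lay above every WT library. The means were 978 ± 57.6 in Hdac2 cKO and 679 ± 89.2 in WT (SD, n = 3 each). The fold change was 1.45 with a 95% confidence interval of 1.04 to 2.01, before adjustment for the genes tested (limma unadjusted p = 0.0342, adjusted p = 0.927). The exact permutation test gave p = 0.1. With limma's array weights Oprl1 was called (adjusted p = 0.0364), in a fit that called 567 genes (3.08%). That fit gave WT 1, 2 and 3 weights of 0.670, 4.17 and 0.101. Hdac2 cKO 1, 2 and 3 had weights of 2.42, 3.65 and 0.402. The libraries with the largest weights, WT 2 and Hdac2 cKO 2, held the lowest WT value and the highest Hdac2 cKO value of Oprl1.

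Oprk1 (ENSMUSG00000025905, chromosome 1, 5588466 to 5606131, plus strand), the kappa receptor gene, stood at 151.6, 163.2 and 181.8 normalised read counts in Hdac2 cKO 1, 2 and 3. In WT 1, 2 and 3 it stood at 123.5, 114.7 and 91.99. The groups again did not overlap, and the spread within each was narrow, at 166 ± 15.3 in Hdac2 cKO and 110 ± 16.3 in WT (SD, n = 3 each). The fold change was 1.51 (95% confidence interval 0.918 to 2.47; limma adjusted p = 0.927), and the exact permutation test gave p = 0.1. The summed markers of non-peptidergic neurons and of itch neurons lay apart in the same direction as Oprl1 and Oprk1, although not every marker did. The sum of the 5 itch neuron markers was 4852 to 6186 in Hdac2 cKO and 2067 to 3195 in WT, with 3 of 5 not overlapping, while Sst had a log2 fold change of -0.66. The sum of the 5 non-peptidergic markers was 38282 to 41424 in Hdac2 cKO and 27647 to 35097 in WT, with 3 of 5 not overlapping, while Gfra2 had a log2 fold change of -0.26. Ret was the largest part of that sum in every Hdac2 cKO library, at 19517 to 22056, against 8298 to 18154 in WT. Summed Schwann cell markers lay apart the other way, at 123770 to 207840 in Hdac2 cKO and 226400 to 340040 in WT, with 3 of 5 not overlapping. Of all tested genes, 4.63% were higher and 3.91% lower in Hdac2 cKO without overlap. The part of these in the receptor values was not tested, and in bulk tissue fewer cells of a type and less RNA per cell cannot be told apart.

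Oprm1 (ENSMUSG00000000766, chromosome 10, 6758506 to 7038198, plus strand), the mu receptor gene, stood at 553.7, 508.1 and 142.7 normalised read counts in Hdac2 cKO 1, 2 and 3. In WT 1, 2 and 3 the values were 384.7, 128.1 and 152.3. The groups overlapped: 3 libraries were high (Hdac2 cKO 1, Hdac2 cKO 2 and WT 1) and 3 low, across both groups. The means were 401 ± 225 in Hdac2 cKO and 222 ± 142 in WT (SD, n = 3 each), and the fold change was 1.75 with a 95% confidence interval of 0.621 to 4.91 (limma adjusted p = 0.927). The exact permutation test gave p = 0.3. Its log2 fold change of 0.80 was 1.43 without Hdac2 cKO 3 and 0.46 without Hdac2 cKO 1. With limma's array weights its adjusted p was 0.0503, short of a call.

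Oprd1 (ENSMUSG00000050511, chromosome 4, 132110726 to 132144486, minus strand), the delta receptor gene, followed a similar order of libraries. Its values were 1060, 952.4 and 251.8 normalised read counts in Hdac2 cKO 1, 2 and 3, against 721.8, 632.8 and 354.7 in WT 1, 2 and 3. The highest and the lowest value were both from knockout libraries. The means were 755 ± 439 in Hdac2 cKO and 570 ± 192 in WT (SD, n = 3 each), with a fold change of 1.16 (95% confidence interval 0.454 to 2.98; limma adjusted p = 0.951). The exact permutation test gave p = 0.7, and the log2 fold change of 0.22 turned to -0.15, -0.08 and -0.09 without Hdac2 cKO 1, Hdac2 cKO 2 or WT 3.

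For Oprm1 and Oprd1 the 3 highest libraries were those with the largest sums of lymphocyte and granulocyte markers, 8834 and 13836 in Hdac2 cKO 1 and 2 and 15215 in WT 1. The same libraries held the largest sums of erythroid markers, 49638 and 75549 in Hdac2 cKO 1 and 2 and 51555 in WT 1, against 1305 in Hdac2 cKO 3 and 7001 and 2696 in WT 2 and 3. In Hdac2 cKO 1, Hdac2 cKO 2 and WT 1 the granulocyte genes S100a8 and S100a9 made up most of the lymphocyte and granulocyte sum. Cd3e, a T cell gene, did not follow it: it was highest in WT 3, at 86.9, against 17.2, 6.88 and 19.4 in those libraries. The other genes of that list were higher in those libraries than in the rest. All 7 lymphocyte and granulocyte genes and all 5 erythroid genes overlapped between the groups. The split was wider than these lists. Summed macrophage markers were also highest in Hdac2 cKO 1, Hdac2 cKO 2 and WT 1, at 2780, 2358 and 2676, although Aif1 did not follow. Pan-neuronal sums were lowest in the same libraries, at 221140, 218940 and 210160. Deviations from group means correlated across genes by 0.401 and 0.342 for WT 1 with Hdac2 cKO 1 and 2. With Hdac2 cKO 3 the correlation was -0.502. The part of these differences in the receptor values was not tested. Without both libraries numbered 3 the log2 fold change was 1.25 for Oprm1 and 0.57 for Oprd1, with adjusted p of 0.782 and 0.674 by limma.

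**Figure D2:**
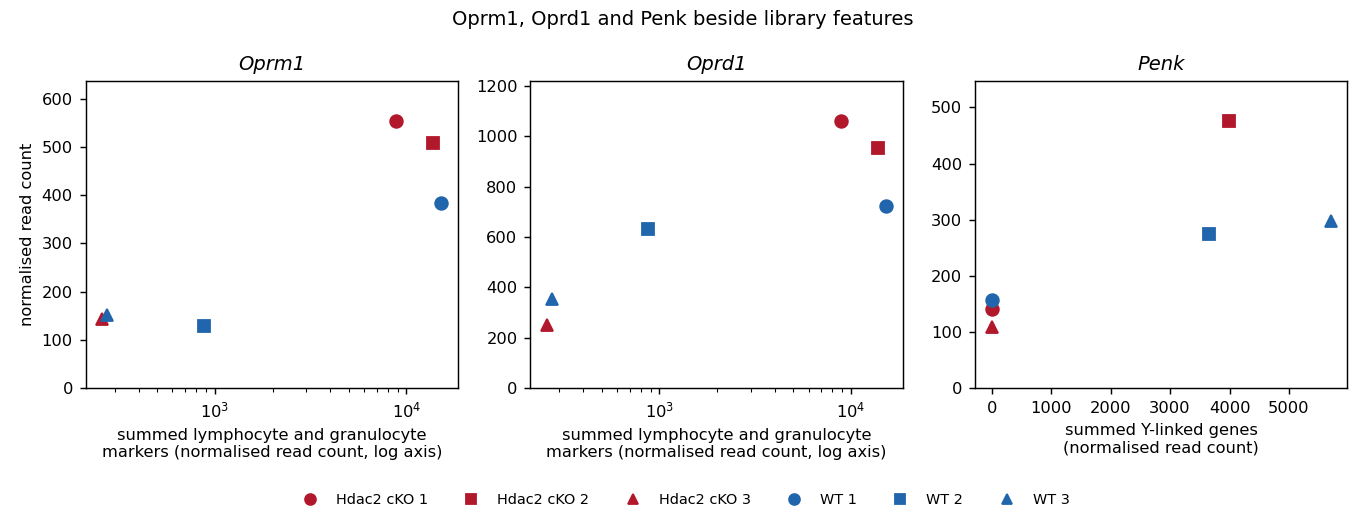
Normalised read counts of Oprm1 (left) and Oprd1 (middle) against the summed lymphocyte and granulocyte markers of each library (log x axis), and of Penk (right) against summed Y-linked genes (linear x axis), with colours for the groups and symbols for the replicate number. Hdac2 cKO 1, Hdac2 cKO 2 and WT 1 lie at the upper right for both receptors, and Hdac2 cKO 2, WT 2 and WT 3 lie above the others for Penk.

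Penk (ENSMUSG00000045573, chromosome 4, 4133531 to 4138819, minus strand), the enkephalin precursor, was the most abundant precursor gene. Its values were 141.4, 475.7 and 108.4 normalised read counts in Hdac2 cKO 1, 2 and 3, against 157.1, 274.0 and 297.4 in WT 1, 2 and 3. The knockout libraries held both the highest and the lowest value. The means were 242 ± 203 in Hdac2 cKO and 243 ± 75.2 in WT (SD, n = 3 each), and the fold change was 0.830 with a 95% confidence interval of 0.321 to 2.15 (limma adjusted p = 0.944; exact permutation p = 0.8). The 3 libraries with Y-linked sums of 3649 or more held the 3 highest Penk values, at 475.7 in Hdac2 cKO 2, 274.0 in WT 2 and 297.4 in WT 3. The other 3 held 141.4 and 108.4 in Hdac2 cKO 1 and 3 and 157.1 in WT 1. Without Hdac2 cKO 3 the log2 fold change was 0.15. With sex as a term, the log2 fold change of -0.27 turned to 0.20; the part of sex in the Penk values was not tested.

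Pomc (ENSMUSG00000020660, chromosome 12, 3954951 to 3960642, plus strand), the precursor of beta-endorphin and melanocortins, stood at 38.4, 40.3 and 36.4 normalised read counts in Hdac2 cKO 1, 2 and 3. In WT 1, 2 and 3 the values were 17.6, 62.5 and 121.6, so the 3 knockout libraries lay within the range of the WT libraries. The fold change was 0.748 with a 95% confidence interval of 0.231 to 2.42 (limma adjusted p = 0.932; exact permutation p = 0.7). The log2 fold change of -0.42 turned to 0.19 without WT 3. Of the 5 pituitary markers, a tissue in which Pomc is abundant, Gh and Cga were at 0 reads in every library and the sum of the list was 74.8 to 108.4 in Hdac2 cKO and 58.1 to 80.3 in WT. Prl had 44 reads in WT 3, the library with the most Pomc, and 0 in the other 5. Tshb had 73 to 130 reads in Hdac2 cKO, 91 and 34 in WT 1 and 2 and 0 in WT 3. Pou1f1 had 0, 5 and 25 reads in Hdac2 cKO 1, 2 and 3 and 0, 5 and 21 in WT 1, 2 and 3. The part of pituitary RNA in the Pomc values was not tested.

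Pdyn (ENSMUSG00000027400, chromosome 2, 129686565 to 129699844, minus strand), the dynorphin precursor, rested on few reads: 28, 8 and 24 in Hdac2 cKO 1, 2 and 3 and 15, 7 and 0 in WT 1, 2 and 3. Scaled, these were 28.3, 7.86 and 16.8 normalised read counts in Hdac2 cKO and 13.2, 10.4 and 0 in WT. A count of 0 in WT 3 allows up to 3 reads, which is 3.07 normalised read counts there, for counting error only. The log2 fold change was 1.61 (95% confidence interval -1.36 to 4.58; limma adjusted p = 0.927) and 0.38 without WT 3. Pnoc (ENSMUSG00000045731, chromosome 14, 65400673 to 65425472, minus strand), the nociceptin precursor, had 9, 14 and 28 reads in Hdac2 cKO 1, 2 and 3 and 18, 11 and 4 in WT 1, 2 and 3. Its groups overlapped, and the log2 fold change was 0.35 (95% confidence interval -1.66 to 2.35; limma adjusted p = 0.948), which turned to -0.24 without WT 3. At these depths only large differences in Pdyn and Pnoc could have been seen.

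Some exons overlap other genes, and a strand setting for the counting was not given in the sources used here. Penk shares 233 exon bases with the antisense transcript A830012C17Rik, which stood at 0, 0 and 2.80 normalised read counts in Hdac2 cKO 1, 2 and 3 and at 0, 0 and 55.2 in WT 1, 2 and 3. Oprm1 shares 96 exon bases with Ipcef1, on the opposite strand, which stood at 36.4 to 103 in Hdac2 cKO and 25.3 to 85.9 in WT. The other 6 genes share no exon base with an annotated gene.

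Levels were compared between genes per kilobase of exon, as the union of annotated exons, over all 6 libraries. Oprl1 had the highest mean, 221 normalised read counts per kilobase, followed by Oprd1 at 165 and Penk at 148. Pomc at 40.1 and Oprm1 at 38.8 came next, then Oprk1 at 15.1, Pnoc at 6.09 and Pdyn at 4.42. Oprl1 exceeded Oprd1 in 5 of 6 libraries, whereas Oprd1 exceeded Penk in 2 of 6 and Pomc exceeded Oprm1 in 3 of 6, so the order within each of these last 2 pairs was not settled. Penk exceeded Pomc in 6 of 6 libraries, Oprm1 exceeded Oprk1 in 5 of 6, Oprk1 exceeded Pnoc in 6 of 6, and Pnoc exceeded Pdyn in 5 of 6. The gene for the nociceptin receptor was thus the highest of the receptors per length, and the gene for its precursor lay near the bottom. The place of Oprm1 depended on the length used, since its annotated exons span 8037 bases in union and 2420 in the longest coding transcript. Per kilobase of the longest coding transcript Oprm1 averaged 129, below Penk at 167 and Oprd1 at 165 and above Pomc at 50.6.

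**Figure D3:**
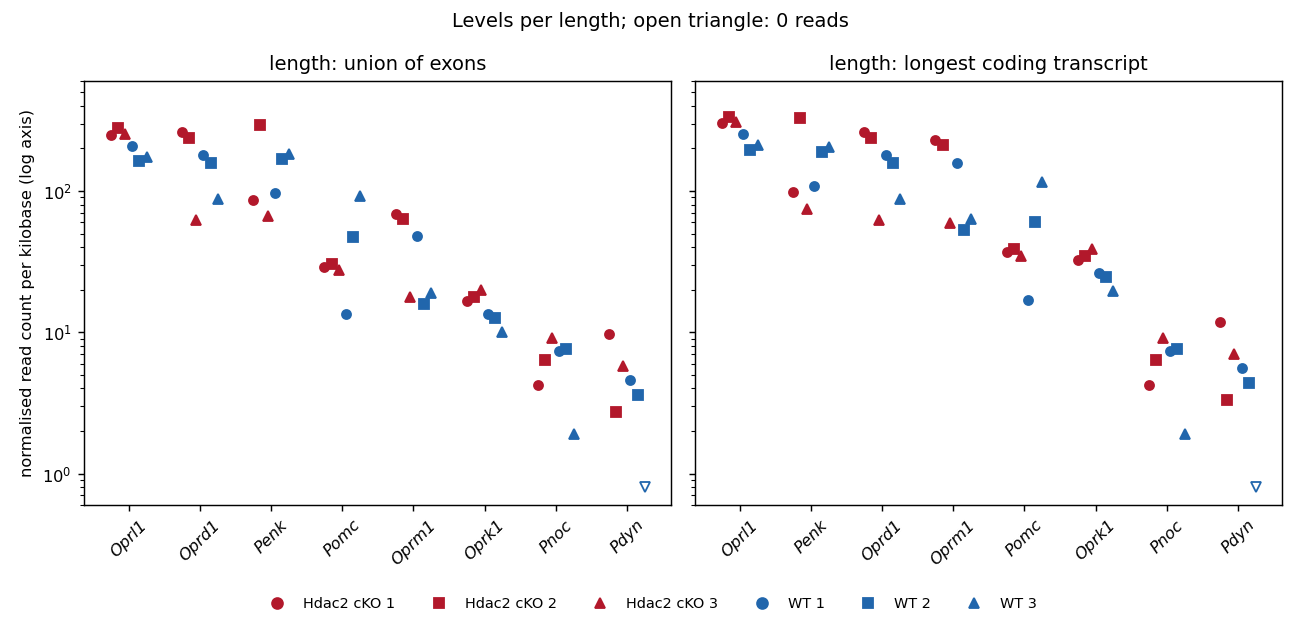
Normalised read count per kilobase (log y axis) of each gene in each library, with genes ordered by their mean over the 6 libraries and length taken as the union of exons (left) or the longest coding transcript (right). Oprl1 is first by both lengths, Oprm1 lies below Pomc by the first and above it by the second, and the open triangle marks the 0 reads of Pdyn in WT 3.

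Genes of the opioid pathway other than the 8 were taken from 6 lists of 54 genes, of which 53 were tested. None passed by limma over all genes (0 of 53), and 33 lay higher and 20 lower in Hdac2 cKO. Of all 18410 genes tested, 10185 lay higher and 8225 lower. Their median log2 fold change was 0.09, beside 0.06 over all genes. The groups did not overlap for 4 of the 53, against 8.54% of all genes: 2 were higher (Gnai3 and Gprasp1) and 2 lower (Adcy6 and Rgs20). Kcnj5, a potassium channel subunit, was under the filter.

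Among 13 Gi/o G protein subunit genes 10 lay higher, with a median of 0.14. Gnai3, an inhibitory alpha subunit, was at 2532 to 2627 normalised read counts in Hdac2 cKO and 2262 to 2361 in WT, higher in every knockout library. Gnb4 averaged 4883 ± 354 normalised read counts in Hdac2 cKO and 4184 ± 591 in WT, and Gnb2 averaged 6307 ± 1144 in Hdac2 cKO and 8328 ± 2497 in WT (SD, n = 3 each). These beta subunits carry the signal from the receptor to its channels, and Gnb2 and Gnb4 both overlapped between the groups. Among 10 tested effector genes (potassium channels, calcium channels and adenylyl cyclases) 6 lay higher, with a median of 0.05. Kcnj3, a subunit of the potassium channels that opioid receptors open, stood at 597 ± 99.2 in Hdac2 cKO and 416 ± 205 in WT, and its log2 fold change of 0.65 was 0.18 without WT 3. Adcy6, an adenylyl cyclase, stood at 924 ± 88.2 in Hdac2 cKO and 1158 ± 223 in WT, lower in every knockout library.

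Among 11 genes of receptor desensitisation (arrestins, receptor kinases and regulators of G protein signalling) 7 lay higher, with a median of 0.30. Rgs20, which speeds the switching off of Gi family proteins, stood at 64.7, 50.1 and 25.2 in Hdac2 cKO 1, 2 and 3, against 81.2, 107.2 and 78.7 in WT 1, 2 and 3. It was lower in every knockout library, with a fold change of 0.499 (95% confidence interval 0.228 to 1.09; limma adjusted p = 0.927). Rgs4, another such regulator, stood at 44190 ± 4633 in Hdac2 cKO and 35848 ± 3673 in WT (SD, n = 3 each). Among 6 receptor partners and regulators 5 lay higher, with a median of 0.08. Gprasp1, which sorts the delta receptor to lysosomes, stood at 8416, 8930 and 9296 in Hdac2 cKO 1, 2 and 3, against 7035, 5402 and 7959 in WT 1, 2 and 3. It was higher in every knockout library (log2 fold change 0.40, limma adjusted p = 0.927) and was called with array weights alone (adjusted p = 0.0338). Ogfr, the opioid growth factor receptor, had a log2 fold change of -0.31 that turned to 0.08 without WT 3.

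Among 7 peptide processing genes 4 lay lower, with a median of -0.25. Pcsk1n, an inhibitor of prohormone convertase 1, stood at 11053, 10770 and 27617 in Hdac2 cKO 1, 2 and 3 and at 11690, 23724 and 176085 in WT 1, 2 and 3. Its log2 fold change of -1.30 rested on WT 3 and was -0.16 without that library. Pam, which amidates peptides, stood at 5321 ± 224 in Hdac2 cKO and 6365 ± 1074 in WT (SD, n = 3 each). Among 6 peptide degrading enzymes 4 lay lower, with a median of -0.08. Dpp3, a peptidase that cleaves enkephalins, had a log2 fold change of -0.31, which turned to 0.01 without WT 3, and Ece2, a metallopeptidase, one of -0.47, which was -0.96 without Hdac2 cKO 3 and -0.23 without Hdac2 cKO 1.

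**Figure D4:**
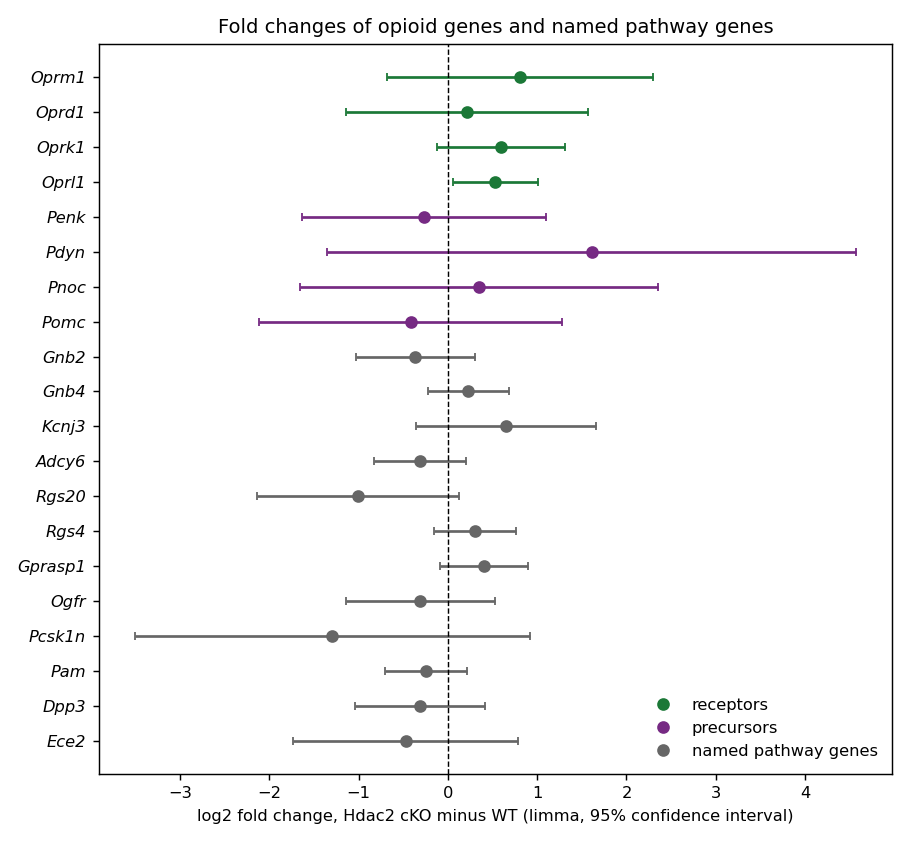
Log2 fold changes (x axis, Hdac2 cKO minus WT) of the 8 opioid genes and the 12 named pathway genes with 95% confidence intervals from limma, unadjusted for the number of genes. The interval of Oprl1, a fold of 1.04 to 2.01, is the single one that lies wholly above 0, and none lies wholly below.

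The genes whose profile over the 6 libraries was most like each opioid gene were found by the root-mean-square difference of log2 (value + 1) after centring, among protein-coding genes. For Oprl1 they were Cd44 (0.06) and Casp8ap2 (0.08), and for Oprk1 Adora2b (0.05) and Dglucy (0.06), in log2 units. For Oprm1 they were Cd209g (0.13) and Sp110 (0.16), and for Oprd1 Xkr4 (0.13) and Pgm5 (0.14). The precursor genes had more distant neighbours, with Olfr1033 (0.26) for Penk, Galntl6 (0.21) for Pdyn and Fgf22 (0.20) for Pomc, except Pnoc, for which Riox1 stood at 0.12. These are descriptions over 6 libraries, chosen among all tested genes.

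**Figure D5:**
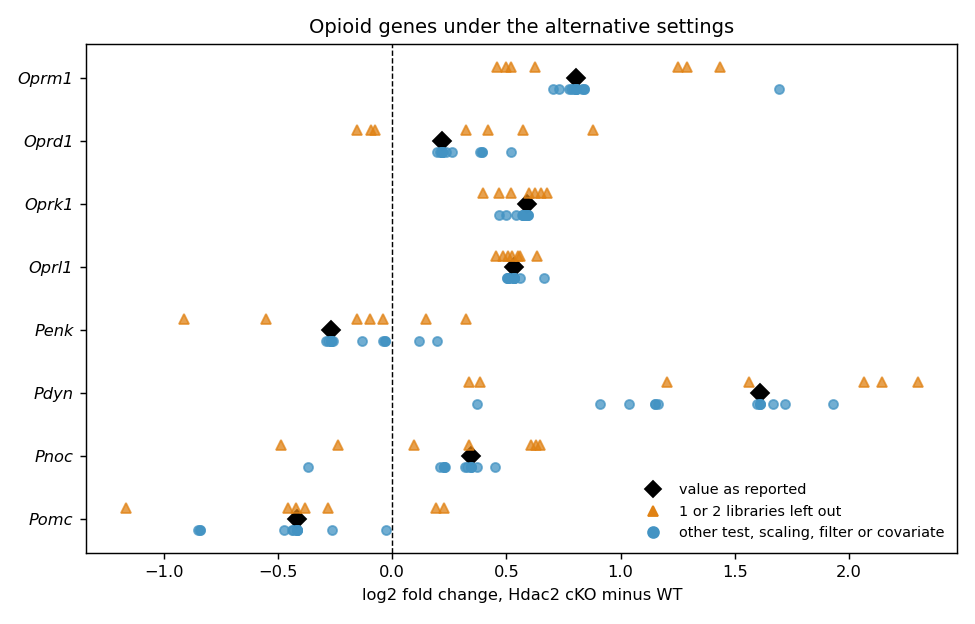
Log2 fold change (x axis, Hdac2 cKO minus WT) of each opioid gene as reported (diamond), with 1 or 2 libraries left out (triangles) and under the other tests, scalings, filters and covariates (circles). Oprm1, Oprk1, Oprl1 and Pdyn stay above 0 in every setting drawn, and Oprd1, Penk, Pnoc and Pomc lie on both sides of 0.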

How the data were processed

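Expression was read from 1 deposited table of dorsal root ganglion RNA-seq with 54532 gene rows and 6 libraries, 3 Hdac2 cKO and 3 WT, grouped and numbered by sample titles. The labels do not say whether a library holds 1 mouse or several, so p-values describe library spread only, which may be technical. Per the submitters' processing notes, the tools were DESeq2, featureCounts, SAMtools and HISAT2 and the build was mm10; the annotation and strand setting were not given in the sources used here. The deposited signal values are reads per gene scaled by 1 factor for each library: each column's values were whole multiples of 1 step (100% within 0.01), which gave back the reads. Among genes with 1 to 20 reads, 42.4% of counts were even in WT 2 and 60.2 to 64.4% in the other libraries; the cause was not tested.

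Symbols, coordinates and exon lengths came from GENCODE M21 (54495 identifiers matched). The main test was limma 3.58.1 (R 4.3.3) applied to log2 (value + 1), with trended, robust variances, to the 18410 genes that reached 10 in 3 or more libraries, two-sided, Benjamini-Hochberg adjusted over all genes, at a threshold of 0.05. Larger pseudocounts pull the log2 fold changes of low genes towards 0 (Pdyn 1.93 with 0.5, 1.61 with 1 and 0.91 with 5). Alternatives used edgeR 4.0.16 and DESeq2 1.42.0 on recovered reads, other scalings, pseudocounts and filters, the replicate block, array weights, a sex term read from Y-linked genes, a gene length correction and left-out libraries. The limma, edgeR and DESeq2 fits of the 2 groups were first tested on simulated data. The simulated counts had the same spread setting for every gene and no difference between libraries beyond size and group. They do not show how well the fits detect changes in these libraries.

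Named genes were the 8 opioid genes, Hdac2 and Avil, and in each pathway list the 2 with the smallest p where none passed, plus nearest profiles. Kcnj5, Gnai3, A830012C17Rik, Ipcef1, Gh, Cga, Prl, Tshb, Pou1f1, S100a8, S100a9, Cd3e, Aif1, Sst, Gfra2 and Ret were chosen after their values were seen. The members and lists were chosen with earlier results of these data known. Deviations of same-numbered libraries from their group means correlated across genes by 0.401, 0.147 and 0.422 for numbers 1, 2 and 3. No label says that the numbers pair the libraries, and Hdac2 cKO 2 correlated more with WT 1 (0.342) than with WT 2. The main test did not use the numbers, which entered only the alternatives with the replicate block. With that block in limma, 1094 genes had an unadjusted p under 0.05, against 341 in the main test, and the limma adjusted p of Hdac2 was 0.0907.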

Additional observations from a re-analysis of the deposited data

How the results depend on the processing

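Of the 8 opioid genes, 1 was called in 1 of 21 alternatives, Oprl1 with array weights, which also called 567 genes and 1 opioid pathway gene. Genes called over all genes otherwise numbered 25 by DESeq2, 77 by DESeq2 with the replicate block and 5 without both libraries numbered 3. Hdac2 was called at -2.54 by DESeq2, -2.49 by DESeq2 with the replicate block and -2.13 with array weights. The replicate block in limma called 0 genes and changed no other call.

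The log2 fold changes of Oprk1 (0.40 to 0.68), Oprl1 (0.45 to 0.66), Oprm1 (0.46 to 1.69) and Pdyn (0.34 to 2.30) kept their sign in every alternative run. All alternatives reuse the same 6 libraries. For Oprk1 and Oprl1 leaving out libraries could not turn the sign, since their groups do not overlap. Leaving out 1 library gave -0.15 to 0.88 for Oprd1, -0.91 to 0.15 for Penk, -0.24 to 0.65 for Pnoc and -1.17 to 0.19 for Pomc; for Ogfr it gave -0.57 to 0.077 and for Dpp3 -0.55 to 0.0078. Without both libraries numbered 3, Penk was 0.32, Pnoc -0.49 and Pomc 0.23. With array weights Penk was 0.12 and Pnoc -0.37, and with the sex term Penk was 0.20. The cause of these turns was not tested. Of the 16 nearest profiles, 10 were shared with a pseudocount of 5, and 15 or 16 with the other pseudocount and both other scalings. The gene length correction was chosen after seeing the data. With a filter of 50, Pdyn, Pnoc and Pomc were not tested. With 3 libraries a group and 4 to 28 Pnoc reads, small changes could not be seen.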

Other observations

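Within a library, the ratio of Oprm1 to Oprd1 normalised read counts was 0.522, 0.534 and 0.567 in Hdac2 cKO 1, 2 and 3, against 0.533, 0.202 and 0.429 in WT 1, 2 and 3. The ratios of the knockout libraries lay close together although both genes differed several-fold between those libraries. WT 1 lay within the knockout range, WT 3 lay below it and WT 2 had the lowest ratio.

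The sum of the 4 receptor genes was 2704, 2667 and 1527 normalised read counts in Hdac2 cKO 1, 2 and 3, against 2009, 1483 and 1250 in WT 1, 2 and 3. The sum of the 4 precursor genes was 217.2, 537.6 and 181.1 in Hdac2 cKO 1, 2 and 3, against 203.8, 363.3 and 423.1 in WT 1, 2 and 3. Both sums overlapped between the groups. Between libraries of the same number the receptor sum was higher in Hdac2 cKO in 3 of 3 comparisons, and the precursor sum in 2 of 3. These counts rest on matching by number, which no label gives. The receptor sum of Hdac2 cKO 3 lay below that of WT 1.

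Genes with 6223 or more exon bases had medians of 0.13, 0.09 and 0.02 log2 units from their gene means in Hdac2 cKO 1, 2 and 3, against 0.09, -0.07 and -0.22 in WT 1, 2 and 3. Oprm1 and Oprk1 are among them. With the gene length correction their log2 fold changes were 0.73 and 0.50, against 0.80 and 0.59 without it, and that of Oprl1 was 0.56.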
